A study of Mus musculus with 3 samples.

Results

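A set of 242 long non-coding RNA genes was examined in regulatory T cells (Tregs), a class of CD4 T cells that dampens immunity and is specified by the factor Foxp3. The members were chosen by annotation and level. They are autosomal genes that GENCODE M21 types as lincRNA, antisense, processed_transcript, sense_intronic, sense_overlapping or bidirectional_promoter_lncRNA, with a TPM of 5 or more in all 3 libraries, TPM being an abundance scaled by transcript length and library total. These 242 were 2.57% of the 9421 autosomal genes of the 6 types, among 55536 genes in all. The levels below therefore describe the members and are not tested. By type they were 103 lincRNA, 63 processed_transcript, 55 antisense, 12 sense_intronic and 9 bidirectional_promoter_lncRNA genes, with no sense_overlapping gene.

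The study sequenced polyadenylated RNA from 1 group of primary cells, described by its labels as Tregs that had experienced inflammation. They came from adult male mice of strain Foxp3CreERT2 x Rosa26YFP, aged 6 months, in which Foxp3 drives a Cre-ERT2 fusion and Rosa26 carries a YFP reporter. The labels give 1 biological replicate and 3 technical replicates, called library 1, 2 and 3 after those numbers. How the inflammation was produced, the tissue, any inducing drug and the step at which the replicates were divided were not stated. With 1 biological replicate, every test concerns the libraries alone, not the spread between animals.

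Long non-coding RNAs are transcripts without a long reading frame. Some act in the nucleus, and others mainly carry shorter RNAs in their introns. Small nucleolar RNAs (snoRNAs) are released from the introns of a host transcript and guide modification of ribosomal RNA, with box C/D snoRNAs directing ribose methylation and box H/ACA snoRNAs directing pseudouridylation. The spliced exons of several such hosts, Gas5 among them, are degraded by nonsense-mediated decay. MicroRNAs (miRNAs) are cut from hairpins in longer transcripts by the nucleases Drosha and Dicer, and miR-155 and miR-142 are known for their roles in T cells.

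Of the members, 22 hosted at least 1 gene of type snoRNA or scaRNA wholly within their body on the same strand, 55 snoRNA entries in all, and 9 hosted a miRNA. Many snoRNA hosts start transcription within a run of pyrimidines, the 5′ terminal oligopyrimidine motif. The bases around the start were therefore read from RefSeq (GRCm38.p6) and searched on the sense strand, 20 bases either side of the start, for CTTTT, then CTTTC, then CTTCC, then CTCTT, then CCTTT and then TTCTT, which can overlap each other. RefSeq promoters were matched for 19 of the 22 snoRNA hosts, and some genes have more than 1 start. At least 1 start held a motif in 12 of the 19 hosts, 63.2%, against 39.1% of the 128 members with a promoter and 27.1% of the 27025 genes in the table. Windows of 60 bases centred on the start are shown for 5 hosts that held a motif, in capitals, and for Zfas1, which held none. They lie at chr1:161035136-161035195 on the plus strand (Gas5), chr11:62602847-62602906 on the plus strand (2410006H16Rik), chr4:132308648-132308707 on the plus strand (Snhg12), chr17:24528221-24528280 on the plus strand (Rab26os), chr3:123508307-123508366 on the minus strand (Snhg8) and chr2:167062904-167062963 on the plus strand (Zfas1).
Gas5: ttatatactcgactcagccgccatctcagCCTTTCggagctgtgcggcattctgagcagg
2410006H16Rik: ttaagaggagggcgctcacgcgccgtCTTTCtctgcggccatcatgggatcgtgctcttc
Snhg12: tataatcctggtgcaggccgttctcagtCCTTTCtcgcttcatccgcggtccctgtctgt
Rab26os: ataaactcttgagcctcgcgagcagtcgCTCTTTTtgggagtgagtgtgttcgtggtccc
Snhg8: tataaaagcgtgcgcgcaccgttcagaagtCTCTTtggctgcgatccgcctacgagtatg
Zfas1: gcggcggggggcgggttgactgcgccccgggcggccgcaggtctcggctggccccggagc
The other RefSeq start of Gas5 held no motif. A match describes letters and is not evidence of a site.

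The snoRNAs inside the hosts were read from the GENCODE M21 transcripts (GRCm38). The letters of the C box (TGATGA) followed by those of the D box (CTGA) were found in 28 of the 55 entries, ACA close to the 3′ end in 17, and neither in 10. Snord47 lies in Gas5 (chr1:161038082-161038158), Snord49b in 2410006H16Rik (chr11:62603079-62603150), Snord12 in Zfas1 (chr2:167065276-167065365), Snora24 in Snhg8 (chr3:123507937-123508066) and Snora73b in Snhg3 (chr4:132352322-132352526). They are shown as 1 example for each of 5 hosts, with the C and D box letters or the ACA in capitals.
Snord47: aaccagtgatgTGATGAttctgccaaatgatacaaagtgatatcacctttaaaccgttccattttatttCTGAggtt
Snord49b: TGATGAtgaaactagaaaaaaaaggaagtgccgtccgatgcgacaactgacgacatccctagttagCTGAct
Snord12: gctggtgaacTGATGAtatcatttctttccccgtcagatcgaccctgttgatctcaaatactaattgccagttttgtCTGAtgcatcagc
Snora24: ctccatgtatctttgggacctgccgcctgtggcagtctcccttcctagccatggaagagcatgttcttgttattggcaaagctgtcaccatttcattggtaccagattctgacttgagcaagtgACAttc
Snora73b: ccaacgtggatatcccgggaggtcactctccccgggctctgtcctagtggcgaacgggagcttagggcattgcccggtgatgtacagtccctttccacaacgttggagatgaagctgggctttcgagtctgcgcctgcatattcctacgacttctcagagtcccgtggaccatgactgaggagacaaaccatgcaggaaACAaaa
The mature miRNAs of the 3 best-known miRNA hosts, Dleu2, Mir155hg and Mir142hg, were read from RefSeq. Capitals mark the seed, bases 2 to 8, through which a miRNA pairs with its targets.
mmu-miR-15a-5p: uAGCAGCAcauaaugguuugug
mmu-miR-16-5p: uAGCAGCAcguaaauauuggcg
mmu-miR-155-5p: uUAAUGCUaauugugauaggggu
mmu-miR-142a-5p: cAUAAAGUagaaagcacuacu
mmu-miR-142a-3p: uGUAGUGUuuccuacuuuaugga
Of these, miR-15a-5p and miR-16-5p, both carried by Dleu2, share the seed AGCAGCA.

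The libraries held 11829501, 14136139 and 10667765 estimated counts on genes, and 0 counts allow up to 3, or 0.254, 0.212 and 0.281 CPM in libraries 1, 2 and 3. Such floors cover counting error only, because PCR copies count as separate reads. All 9 Treg markers checked, Foxp3 at 16.1 ± 1.86 TPM (SD, n = 3) among them, were at 5 TPM or more. Markers of other cells were also present. The 5 erythroid markers summed to 4.83, 51.2 and 286 TPM in libraries 1, 2 and 3, the 8 B and plasma cell markers to 462, 727 and 915, the 7 myeloid markers to 10.1, 68.9 and 28.2, and the 6 CD8 and NK markers to 15.9, 50.01 and 27.8. In a bulk sample, fewer cells of a type and less RNA per cell cannot be told apart.

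The members spanned a wide range of levels. Their median mean TPM was 13.9, with quartiles at 8.95 and 31.4, and 20 reached 100 TPM or more. The top 5 members held 72.1% of the summed mean TPM of the set, and AY036118 alone 37.6%. Together the members took 23281, 25981 and 26833 TPM in libraries 1, 2 and 3, and 10907, 11142 and 11199 TPM without AY036118 and Malat1.

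**Figure D1:**
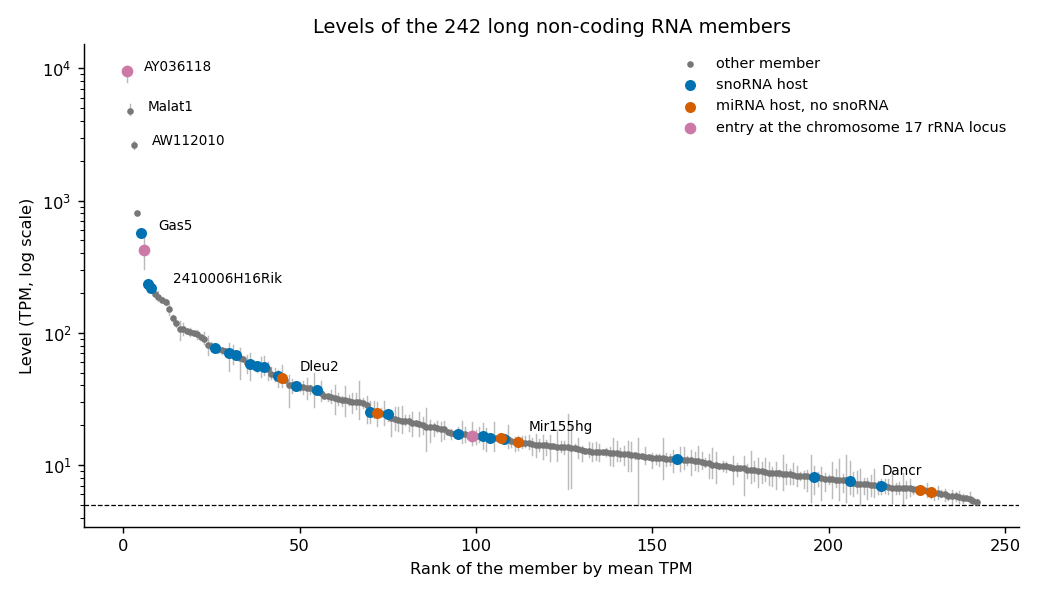
Level of each of the 242 members in TPM on a log axis, ranked by the mean over 3 libraries, with points at the mean and grey bars from the lowest to the highest library. The snoRNA hosts run through nearly the whole range, with Gas5 at 567 TPM near the top and Dancr at 6.95 near the threshold of 5 TPM, drawn as a dashed line.

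At the threshold, the 5 members with the lowest minimum were B630019A10Rik and Gm10847 at exactly 5 TPM, B230354K17Rik and Gm43126 at 5.01 and Gm44199 at 5.09. The 5 genes just outside were Gm33782 at 4.96, Gm29112 at 4.95, Gm10552 at 4.87, Gm15832 at 4.86 and 4930570N18Rik at 4.85. In all, 63 members had a lower bound of the authors' model under 5 TPM in at least 1 library.

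The highest level belonged to an entry that lies over ribosomal RNA. AY036118 (ENSMUSG00000105361.1, chromosome 17, 39847113 to 39848035, minus strand) stood at 7907, 10434 and 10246 TPM in libraries 1, 2 and 3. All 923 of its exonic bases fall on the rRNA gene CT010467.1 on the same strand, so the reads of the pair could not be separated by position. CT010467.1 itself was at 9369, 10736 and 9167 TPM. Beside them on the plus strand, Gm26917 had 306, 429 and 542 TPM and Gm42418, which RefSeq names Rn18s-rs5, 14.2, 14.3 and 21.2 TPM. All 3 of these members were lowest in library 1, whereas CT010467.1 was lowest in library 3 by TPM. Library 2 was highest for AY036118 and library 3 for the plus-strand pair. These entries are named in the annotation as long non-coding RNA, and the values are those of the locus.

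A further 11 members shared exonic bases with transcripts typed protein_coding of a coding gene on the same strand. Exons of other transcripts of coding genes were not counted. The reads of these 11 members could be split by the model. The 5 most abundant were 1810026B05Rik at 79.0 ± 6.27 TPM, 1300002E11Rik at 38.3 ± 6.88, Snhg3 at 36.7 ± 0.647, 1700097N02Rik at 31.5 ± 3.25 and Gm17066 at 17.3 ± 0.959 (SD, n = 3 each). They overlap Chd2 by 634 bases, Map3k13 by 227, Rcc1 by 135, Glo1 by 90 and Rbm26 by 413. RefSeq names 1810026B05Rik Chaserr, a transcript known in mouse cells to restrain its neighbour Chd2, a chromatin remodeller. Another 75 members overlapped coding or rRNA exons on the opposite strand only. The strand setting of the counting is not given, so for these the reads of a member and of its antisense partner cannot be told apart.

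Not every member is non-coding in other annotations. RefSeq matched 155 members by symbol or synonym and called 135 of them lncRNA and 15 protein coding. Cct6a, which encodes a subunit of the chaperonin TRiC and is typed processed_transcript in GENCODE M21, was at 240.2, 254 and 203 TPM. Gm12940, matched to Sfpq, was at 197 ± 9.44 TPM and Ndufb1-ps, matched to Ndufb1, a subunit of respiratory complex I, at 188 ± 15.6 TPM (SD, n = 3 each). A further 4 of the 15 most abundant members, all called lncRNA by RefSeq, were AI662270 at 169.9 ± 8.48 TPM, BC018473 at 150.5 ± 13.5, Gm43305 at 129 ± 8.37 and AU020206 at 119 ± 7.25 (SD, n = 3 each).

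Among the general nuclear RNAs, Malat1, a component of nuclear speckles, was the most abundant (ENSMUSG00000092341.3, chromosome 19, 5795690 to 5802672, minus strand). It stood at 4468, 4404 and 5388 TPM in libraries 1, 2 and 3, highest in library 3. The model gave 98.3% of this TPM to Malat1-203, a transcript of 485 bases at 5801916 to 5802671. The full-length Malat1-201 of 6983 bases took 1.73%. TPM is scaled by length, and the shares of reads differed. Malat1-203 had 17343, 20639 and 19132 estimated counts in libraries 1, 2 and 3, and Malat1-201 had 4633, 5439 and 5920. Gm37376, an unclassified entry inside Malat1 on the opposite strand, was at 3465 ± 469 TPM (SD, n = 3), so how the reads of this stretch were shared is uncertain. Neat1, the RNA scaffold of paraspeckles, was far lower at 28.04, 26.6 and 34.98 TPM, also highest in library 3. Its short form Neat1-202 of 3004 bases took 96.7% of the TPM and Neat1-201 of 20771 bases, the form known to build paraspeckles, 2.83%. The long form was thus at 0.86, 0.67 and 1.01 TPM in libraries 1, 2 and 3. Its estimated counts were 162, 153 and 174, against 727, 824 and 833 for the short form. Neat1-202 lies wholly within Neat1-201, so reads of the shared stretch were split by the model. Only polyadenylated RNA was sequenced, so such shares are no measure of forms without a poly(A) tail, here or in Malat1.

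Tug1 was at 170.1, 176 and 185 TPM. Norad, the sink for Pumilio proteins that these tables list as 2900097C17Rik, was at 35.8, 32.2 and 32.5 TPM. Pvt1, a neighbour of Myc, was at 21.5 ± 2.13 TPM, Lncpint, a p53 target in mouse cells, at 21.8 ± 5.17 and Ptprv at 13.7 ± 3.998 (SD, n = 3 each). Of the 20 general lncRNAs found in the table by symbol, 11 were at 5 TPM or more and 9 were members, the other two being CT010467.1 and Gm37376. H19, Mirg and Hotairm1 had 0 counts in all 3 libraries, and Kcnq1ot1, the imprinted antisense RNA of Kcnq1, was at 2.38 ± 0.416 TPM.

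Of the T cell lncRNAs listed, 13 were found by symbol and 6 of these were members. Morrbid, also listed, is in the set under the symbol Gm14005 and is given below. AW112010 (ENSMUSG00000075010.5, chromosome 19, 11047612 to 11055808, minus strand), known in mouse macrophages as an induced transcript that is translated into a small protein, was at 2606, 2825 and 2462 TPM. It was highest in library 2, and AW112010-202 took 94.3% of it. That direction turned in the whole-number count table on GENCODE M4, where AW112010 had 530, 527 and 521 counts in libraries 1, 2 and 3 and a log2 difference of library 2 over library 3 of -0.28 (adjusted p = 0.0236 by the Poisson chi-square test). Gm26740, which runs antisense over H60b and Raet1e, had 104.1, 103.6 and 104.4 TPM, so the libraries lay within 1 TPM of each other. Gm19585, Gm2682 and A430093F15Rik stood close together at 75.02 ± 4.10, 73.5 ± 4.29 and 73.0 ± 3.25 TPM, and Gm20069 at 17.5 ± 1.52 (SD, n = 3 each). Flicr, known in mouse Tregs as a regulator of Foxp3, lies on the X chromosome and was outside the set at 1.46 ± 0.351 TPM (SD, n = 3).

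Among the 22 snoRNA hosts, Gas5 led (ENSMUSG00000053332.13, chromosome 1, 161034422 to 161038539, plus strand), with 10 snoRNA entries in its body. It was at 558, 536 and 608 TPM in libraries 1, 2 and 3. Next came Cct6a, given above, and 2410006H16Rik, which carries Snord49b, Snord49a and Snord65, at 214.5, 199 and 236 TPM. Both Gas5 and 2410006H16Rik were lowest in library 2 and highest in library 3. Zfas1, host of the Snord12 family, had 79.7, 75.1 and 74.8 TPM. Snhg5, host of Snord50a and Snord50b, had 66.2, 65.3 and 71.1 TPM, and Snhg1, with 8 entries, 52.1, 39.1 and 49.4. In the middle of the range, AA465934, host of Snord7, was at 55.9 ± 5.08 TPM, Snhg15, host of Snora9, at 39.9 ± 1.84 and 1810032O08Rik, host of Snord1a, Snord1b and Snord1c, at 24.3 ± 2.48 (SD, n = 3 each). 1110038B12Rik, host of Snord52, had 30.2, 24.7 and 20.7 TPM. Snhg12 was at 15.8 ± 0.764 TPM and Rab26os, host of Snord60, at 11.05 ± 0.598 (SD, n = 3 each). The lowest were Snhg17 at 6.01, 8.48 and 9.79 TPM, Epb41l4aos at 6.09, 6.01 and 10.8 and Dancr at 7.78, 7.02 and 6.04. The median mean TPM of the hosts was 38.3, against 13.4 in the other members.

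**Figure D2:**
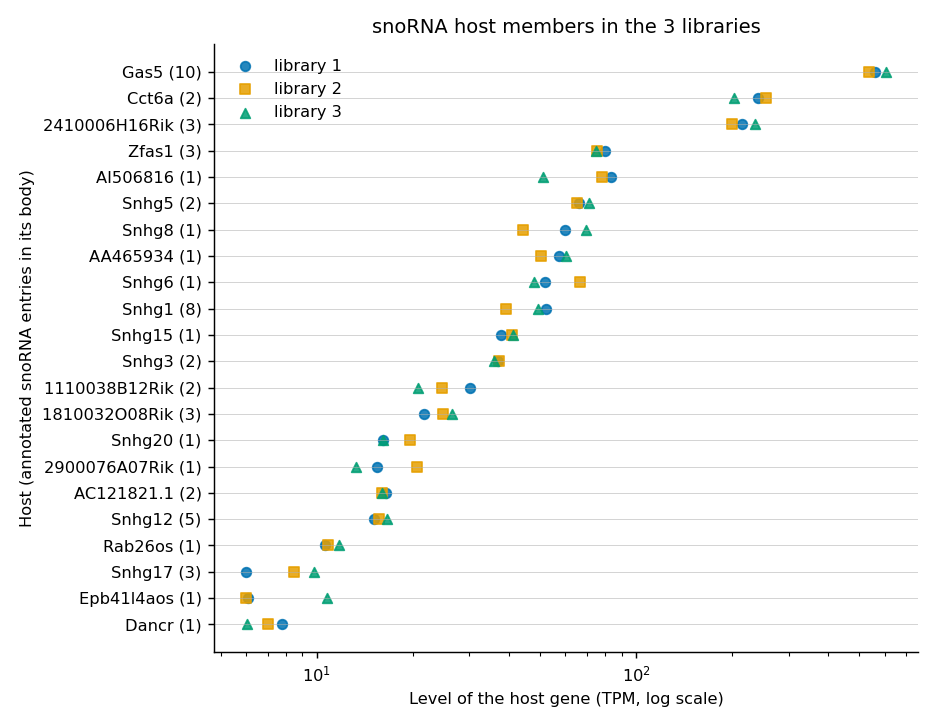
Level of each snoRNA host in TPM on a log axis in libraries 1, 2 and 3, ordered by mean level, with the number of annotated snoRNA entries in parentheses. The libraries spread most for Epb41l4aos, with 10.8 TPM in library 3 and 6.09 and 6.01 TPM in libraries 1 and 2, followed by AI506816, with 51.2 TPM in library 3 and 83.4 and 78.2 TPM in libraries 1 and 2, Snhg17 and Snhg8. Estimated counts in libraries 1, 2 and 3 were 21, 25 and 34 for Epb41l4aos and 93.9, 117 and 98.7 for Snhg17. Neither was called by the Poisson chi-square test described below (adjusted p = 0.0987 and 0.766).

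The hosts were also more richly annotated, with a median of 5.5 transcripts each against 2 in the other members. In 12 of the 22, some transcripts are typed retained_intron. These took 45.6% of the TPM of Gas5, 50.7% of Snhg1, 46.4% of Snhg5, 37.1% of Zfas1 and 27.8% of Snhg8, on average over the libraries. The highest such share among the 12 was 72.8%, in AC121821.1, and the lowest were 5.33% in 1810032O08Rik and 8.27% in AA465934. In Snhg8 that share was 23.5%, 20.98% and 38.9% in libraries 1, 2 and 3, highest in the library where the gene itself was highest. No other host of the 12 had its highest share in library 3. Gas5 and Snhg5, also highest in library 3 as genes, had their lowest shares there, 42.3% and 41.8%. In Snhg1 the share was 47.0%, 53.7% and 51.5% in libraries 1, 2 and 3. The main spliced form of Gas5, Gas5-224 of 502 bases, took 53.2%. Where a snoRNA had to lie within an intron and touch no exon of any transcript of its host, 7 of the 22 remained hosts.

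The snoRNAs themselves were hardly seen in these libraries. The 55 entries, which are 60 to 205 bases long, were assigned 352.5 estimated counts in the 3 libraries together. Of them 10 had 0 counts in every library and 4 reached 10 counts in any. Snora73b, in Snhg3, had 27.3, 31.8 and 24.5 counts, and Gm26083, in Snhg20, had 25.3, 26.4 and 14.4. Snord47, in Gas5, had 6.02, 5.22 and 0.88. Mature snoRNAs carry no poly(A) tail and were not the target of these libraries, so the counts are no measure of them. The 11 miRNA entries were likewise at 0 in 8 cases.

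Other hosts of the same list fell outside the set. Snhg9 was at 6.59, 4.10 and 8.99 TPM and failed the rule in library 2, Snhg10 was at 4.41 ± 1.07 and Snhg14 at 3.07 ± 1.76 TPM (SD, n = 3 each), and Snhg18 had 0 counts in all 3 libraries.

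Of the miRNA hosts, Dleu2 was the most abundant at 56.8, 41.1 and 39.1 TPM in libraries 1, 2 and 3, highest in library 1. Single-exon transcripts led within it, Dleu2-215 of 4098 bases with 39.5% and Dleu2-214 with 23.0%, both of the unclassified type TEC. Mir142hg, the source of miR-142 in blood cells, was at 25.1, 29.95 and 19.7 TPM from 50, 72 and 36 counts. Mir155hg, the source of miR-155, was at 13.1, 16.7 and 15.1 TPM. Both were highest in library 2. Gm17494, which contains Mir760, was at 15.9 ± 0.707 TPM, Gm15987 at 6.46 ± 0.193 and Gm10505 at 6.26 ± 0.531 (SD, n = 3 each). Snhg20, 2900076A07Rik and AC121821.1 held entries of both types, and every miRNA entry in them overlaps a snoRNA entry, so 1 locus can appear under both types. These members were at 17.2 ± 1.96, 16.4 ± 3.78 and 16.1 ± 0.242 TPM. Of others on the miRNA host list, Mirt1, a member with no miRNA entry in its body, was at 20.2 ± 3.03 TPM, whereas Mir22hg at 3.86 ± 0.953 and Mir17hg at 1.67 ± 0.528 were below the threshold.

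The question that the 3 libraries allow is which members differ between them by more than counting noise. Rounded estimated counts were tested gene by gene with a Poisson chi-square test over the 13970 genes whose counts averaged 10 or more, against shares expected from library sizes adjusted by TMM. A chi-square per degree of freedom of 1 is the mean that counting noise gives, and the median under such noise is lower. All 242 members were tested, and 110 had a Benjamini-Hochberg adjusted p under 0.05, 45.5%, against 45.7% of all tested genes and 51.7% of the 7746 autosomal protein-coding genes at 5 TPM or more in all 3 libraries. The share of the members was thus near the background, and the rule itself removes genes that are low in 1 library. The median chi-square per degree of freedom was 3.19 in the members and 3.28 in all tested genes, and the median fold of the highest over the lowest library was 1.30 in the members and 1.26 in all tested genes. The differences were mostly small, with 39 called members over 1.5-fold and 7 over 2-fold. These numbers were not set beside all tested genes and describe the members alone. Calls followed the counts: 10 of 67 members with a mean count of 10 to 100 were called, 14.9%, against 33.1% of all genes in that band. The next bands held 52 of 109 members with a mean count of 100 to 300, 47.7% against 40.0%, and 29 of 45 with 300 to 1000, 64.4% against 48.8%. The last held 19 of 21 with a mean count of 1000 or more, 90.5%, against 71.6%. Without library 3, 54 members and 2971 of 13964 genes were called, and without library 2, 71 members and 4292 of 13971 genes. The test treats reads as independent and takes no account of variation between preparations.

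**Figure D3:**
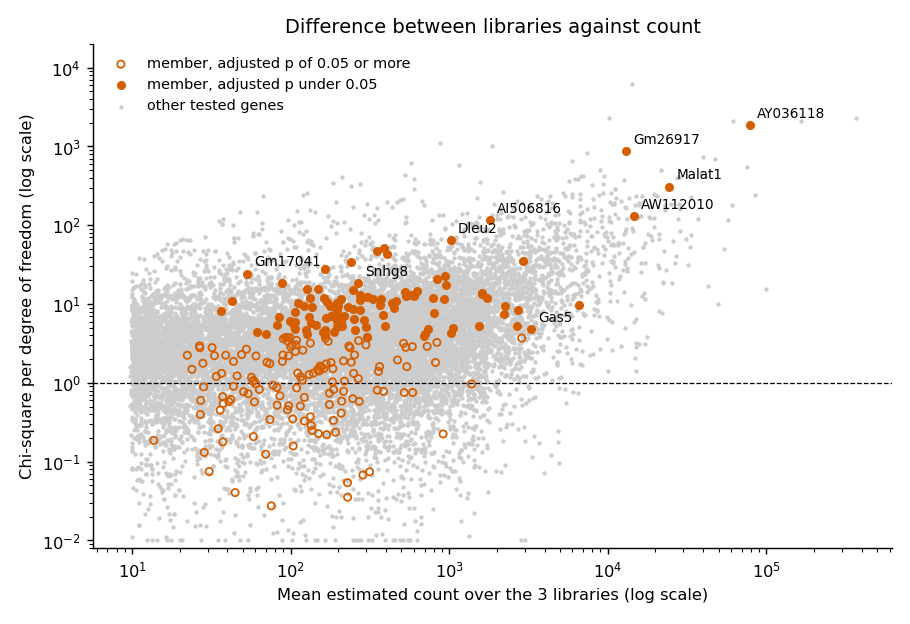
Chi-square per degree of freedom between the libraries against the mean estimated count, both on log axes, for members and for the other tested genes, whose values under 0.01 are drawn at 0.01. The dashed line marks 1, the mean under counting noise. Called members, filled, become more frequent as the count rises, and AY036118, Gm26917, Malat1 and AW112010 have the largest values of the set.

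The 10 members with the largest chi-square values, all of them called by the Poisson chi-square test with Benjamini-Hochberg adjustment, began with AY036118 at a chi-square per degree of freedom of 1879 and Gm26917 at 881, both from the rRNA locus. Malat1 followed at 309, 1.22-fold between its highest and lowest libraries (adjusted p = 2.43e-132). That difference lay in library 3, and without it libraries 1 and 2 did not differ beyond the limit (adjusted p = 0.405). AW112010 was at 131 and AI506816, host of an entry typed snoRNA and named Mir3096, at 116, lowest in library 3. Dleu2 was at 64.9, and its difference was 1.62-fold (adjusted p = 2.65e-27). 2610035D17Rik had 24.1, 22.2 and 43.0 TPM and Gdap10 6.64, 5.45 and 11.1 TPM, both highest in library 3. AC102496.1 had 27.6, 49.7 and 34.4 TPM, highest in library 2. Cct6a closed the group at 35.3. Without library 3, the calls of AI506816, 2610035D17Rik, Gdap10 and Cct6a were lost as well (adjusted p = 0.323, 0.582, 0.127 and 0.754).

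**Figure D4:**
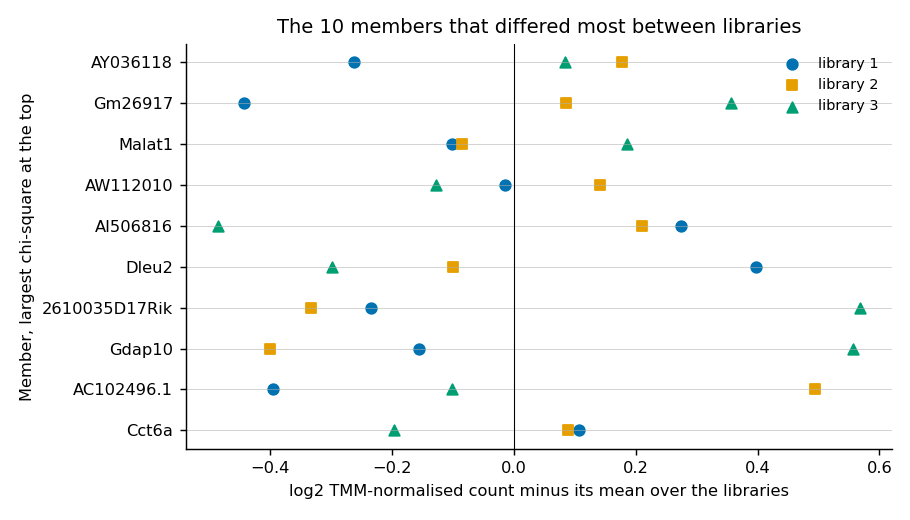
The 10 members that differed most by chi-square, each library as log2 of the TMM-normalised count minus the mean over the libraries. Library 1 is low for AY036118 and Gm26917, library 3 is high for Malat1, 2610035D17Rik and Gdap10 and low for AI506816 and Cct6a, and library 1 is high for Dleu2.

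Of the 22 snoRNA hosts 7 were called by the same test, 31.8%, against 45.7% of all tested genes. The median chi-square per degree of freedom over all 22 hosts was 1.19, against 3.28 in all tested genes. Both values depend on the counts, and the hosts were not matched to other genes by count. Of all tested genes, 33.1% were called at mean counts of 10 to 100 and 71.6% at 1000 or more. The 7 were Cct6a, AI506816, Snhg8, Snhg6, 1110038B12Rik, 2900076A07Rik and Gas5. Snhg8, with 260, 229 and 309 estimated counts in libraries 1, 2 and 3, was highest in library 3 and 1.70-fold above library 2 (adjusted p = 7.97e-08 by the Poisson chi-square test). Snhg6 had 51.8, 66.5 and 47.8 TPM and was highest in library 2, a call that was lost without that library (adjusted p = 0.402 by the Poisson chi-square test). Gas5 passed narrowly, with a 1.07-fold difference and an adjusted p of 0.0206 by the Poisson chi-square test. Without library 2 its adjusted p was 0.0532 and without library 3 it was 0.791. Without library 3, 2 hosts were called in all, against 2971 of 13964 genes, and without library 2, 4 hosts, against 4292 of 13971 genes. The other hosts, Zfas1, Snhg5 and Snhg1 among them, did not pass the test at their counts.

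On TMM-normalised counts, 62, 81 and 99 members were highest in libraries 1, 2 and 3. Library 1 thus took 25.6% of the members against 31.2% of all tested genes, library 2 33.5% against 32.3%, and library 3 40.9% against 36.5%. Members both called and highest in a library were 29 in library 1, 12.0% against 14.0% of all tested genes, 33 in library 2, 13.6% against 15.5%, and 48 in library 3, 19.8% against 16.2%. Scaling by total counts raised the 99 to 119. The 12 sense_intronic members, transcripts inside the introns of coding genes on the same strand, were highest in library 3 in 9 cases, 75%, close to the 65.9% of all 82 tested genes of that type. By type, library 3 was highest for 44 of 103 lincRNA members against 44.7% of all tested genes of that type, 20 of 55 antisense members against 50.8%, and 23 of 63 processed_transcript members against 45.0%. The same share was 34.4% in all tested protein-coding genes and 55.3% in TEC entries. Transcripts typed retained_intron took 5.87%, 5.62% and 6.37% of counts in libraries 1, 2 and 3, the largest share being in library 3. The erythroid, B and plasma cell markers given above were also highest in library 3. The part of either in the members' levels was not tested.

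Each sense_intronic member was set beside the coding gene that encloses it, and these examples were chosen after their values were seen. Gm28112 lies in Ikzf2, the gene of the Treg factor Helios, and had 54.2, 46.4 and 66.0 TPM in libraries 1, 2 and 3, against 451, 371 and 478 TPM for Ikzf2. Both were lowest in library 2. A530041M06Rik in Lrig2, at 12.0, 8.95 and 15.3 TPM, was above its enclosing gene, which had 4.88, 4.82 and 5.75. The enclosing gene was higher than the member in 9 of 12 cases. On TMM-normalised counts it was highest in the same library as the member in 4 of 12, and in library 3 in 2 of 12.

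**Figure D5:**
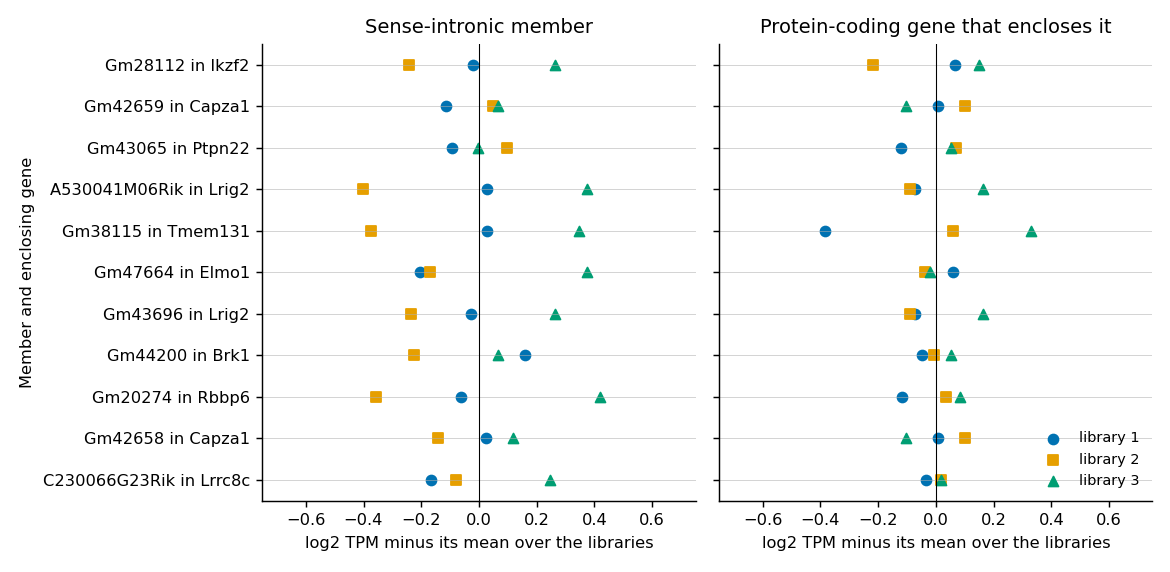
11 of the 12 sense_intronic members (left) and the coding genes that enclose them (right), each library as log2 TPM minus its mean over the libraries. On this scale library 3 is highest for all members shown except Gm43065 and Gm44200, and among the enclosing genes Tmem131 and Ikzf2 spread most.

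Of the 55 antisense members, 48 had a coding gene on the opposite strand of the same place, and that partner was at the higher level in 34. The following pairs were chosen after their values were seen. Gm15564, over Parp9 and Kpna1, was itself the most abundant of the type at 807, 819 and 785 TPM, against 58.0 ± 2.48 TPM for Parp9 and 33.4 ± 0.590 for Kpna1 (SD, n = 3 each). Gm17041, over Cish, an inhibitor of cytokine signalling, had 6.63, 9.67 and 24.5 TPM, against 85.96, 67.9 and 91.5 TPM for Cish. Its estimated counts of 25.8, 45.4 and 87.4 came with posterior SDs, a measure of how uncertainly reads were assigned, of 16.9, 17.01 and 20.1. Gm43126, over the cyclin gene Ccnd2, had 5.01, 15.9 and 14.4 TPM, against 567, 594 and 591 TPM for Ccnd2. The posterior SD of the Gm43126 count averaged 58.2% of the count. With that SD added to the counting variance its call was lost (adjusted p = 0.398 by the Poisson chi-square test). Gm48719 over Cd3e, at 12.7, 7.31 and 7.55 TPM, and Gm37401 over Rhoa, at 82.1, 101.6 and 87.7 TPM, likewise lie opposite genes of high level, Cd3e at 1119 ± 9.75 and Rhoa at 351 ± 15.96 TPM (SD, n = 3 each).

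The protein machinery around the hosts was present. Of 18 snoRNA-protein and assembly genes, 15 were at 5 TPM or more in all 3 libraries. Among the core proteins of box C/D snoRNAs, Nop56 was at 205 ± 14.7, Snu13 at 155 ± 17.4, Nop58 at 155 ± 14.9 and the methyltransferase Fbl at 33.7 ± 3.96 TPM. Of the box H/ACA proteins, Nop10 was at 126 ± 8.99, Nhp2 at 114 ± 10.3, the pseudouridine synthase Dkc1 at 84.0 ± 7.22 and Gar1 at 14.95 ± 3.51 TPM (SD, n = 3 each). By the same Poisson chi-square test 9 of the 18 were called, 50%, against 45.7% of all tested genes. On TMM-normalised counts 9 were highest in library 1, 8 in library 2 and 1 in library 3. The hosts were highest in libraries 1, 2 and 3 in 4, 7 and 11 of 22 cases. All tested genes were highest in these libraries in 31.2%, 32.3% and 36.5% of cases. Library 3 was highest for 44.7% of tested lincRNA and 45.0% of tested processed_transcript genes, types that occur among the hosts. The difference between the lists was not tested. Of 16 nonsense-mediated decay genes 15 were at 5 TPM or more and 6 were called, 37.5%, with Eif4a3 at 150 ± 2.77 and Upf1 at 13.5 ± 0.604 TPM. Of 13 paraspeckle protein genes 12 were at 5 TPM or more and 8 were called, with Hnrnpk at 2242 ± 159 and Nono at 299.8 ± 29.6 TPM. Of 10 miRNA-processing genes, 8 were at 5 TPM or more, 9 were tested and 3 were called, with Drosha at 14.9 ± 0.426 and Dicer1 at 7.29 ± 0.512 TPM (SD, n = 3 each).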

How the data were processed

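Polyadenylated RNA was measured in 3 technical libraries of 1 biological replicate. The deposited gene tables hold estimated counts, in which reads are shared among entries by a model, and TPM values made by the authors from those counts and effective lengths, per the file headers. The same tables give the authors' model bounds of TPM and posterior SDs of the counts, a signal of assignment uncertainty, as deposited. Deposited transcript tables add the percent of a gene's TPM per transcript. A second deposited table holds whole-number counts on GENCODE M4, in which 9 members occur. The main tables rest on mm10 and GENCODE M21, per the labels. The aligner, counter, versions and strand setting were not given in the sources used here.

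Estimated counts were rounded and tested per gene by a Poisson chi-square test of homogeneity (2 degrees of freedom), with expected shares from TMM factors of 0.994, 0.976 and 1.03 in libraries 1, 2 and 3 (edgeR 4.0.16 in R 4.3.3, numpy 2.4.6 and scipy 1.17.1 in Python 3.11.15), for genes whose counts averaged 10 or more. The Benjamini-Hochberg adjustment ran over all of these. DESeq2 1.42.0 gave alternative size factors. With 1 group no quasi-likelihood test could be run, and p-values measure only the spread between libraries. Overlaps of 1 base or more with exons of rRNA genes or of transcripts typed protein_coding in coding genes were flagged.

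The members and lists were chosen with earlier results of these data known. Named are the 15 most abundant members, all hosts, the listed general and T cell lncRNAs, the 10 members with the largest chi-square, the genes at the threshold and the flagged members (for coding overlap the 5 most abundant). Others were chosen after their values were seen. Values of 1 enclosing gene are not reported here.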

Additional observations from a re-analysis of the deposited data

How the results depend on the processing

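The number of members that differed between libraries, 110, was 111 with DESeq2 size factors, 110 with total counts, 98 with no filter on low counts, 96 with the posterior SD added to the variance and 105 of 230 without members that overlap coding or rRNA exons on the same strand. Among all genes, 6388 of 13970 were called in the main setting, 6384 with DESeq2 size factors and 6443 with total counts. With no filter 6928 of 32860 were called, and with the posterior SD added 5663. The number of called members was 70 of the 155 that overlap no coding or rRNA exon on either strand, an alternative chosen after seeing the data. It was 2 of the 8 members testable in the whole-number table. Leaving out 1 library gave 54 to 82 members, 2971 to 4797 of all genes and 2 to 7 hosts. Calls in the whole-number table covered 2154 of 9991 genes and 1 of 3 hosts. The fewer members, genes or libraries tested are part of each of these settings, and the cause was not tested further. AW112010 reversed, with a log2 difference of library 2 over library 3 of -0.28 in the whole-number table (adjusted p = 0.0236 by the Poisson chi-square test), against 0.27 in the main table, and the cause was not tested. That table gave it 530, 527 and 521 counts in libraries 1, 2 and 3, against 13799, 18048 and 11920. A limit of 2 TPM gave 508 members and one of 10 TPM 143. Counting overlap on either strand flagged 87 members in place of 12, and requiring a snoRNA to touch no exon left 7 hosts in place of 22. Of the 63 members named by rule, 18 lost their call without library 3, 9 without library 2 and 5 without library 1. A call was gained by 1 without library 3 and by 3 without library 1. Calls among all tested genes fell from 6388 to 2971, 4292 and 4797 without libraries 3, 2 and 1. How many of the 63 were called in the main setting is not given here. No paired analysis was possible because there is 1 group. Precision is limited by 1 biological replicate and by counts under 100 in 67 members.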

Other observations

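Other members lie beside genes of T cells, and these were chosen after their values were seen. Lockd, a lincRNA downstream of the cell-cycle inhibitor gene Cdkn1b, had 80.3, 64.6 and 58.5 TPM in libraries 1, 2 and 3, against 40.0, 44.3 and 45.7 TPM for Cdkn1b. Lockd was highest and Cdkn1b lowest in library 1 by TPM. Gimap1os was at 101 ± 7.502 TPM (SD, n = 3). Gm14005, which RefSeq names Morrbid, known in mouse myeloid cells to repress the cell-death gene Bcl2l11, was at 54.3, 60.1 and 55.4 TPM. 1700020I14Rik, named Oip5os1 by RefSeq and known as the RNA that triggers decay of miR-7, was at 65.1, 64.2 and 61.4 TPM.

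Protein-coding genes that carry a snoRNA numbered 279, of which 188 were at 5 TPM or more in all 3 libraries. Of the 217 tested, 124 were called by the Poisson chi-square test, 57.1%, against 45.7% of all tested genes and 51.7% of autosomal coding genes at the level of the members. Gm8369 of the T cell list, typed protein_coding and therefore no member, was at 214, 304 and 319.7 TPM.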
